A study of Mus musculus with 12 samples.

Results

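The 8 genes described here are the core of the Hedgehog signalling pathway, measured by RNA-seq in the mouse subventricular zone at 4 ages. They were chosen by symbol: the ligand Shh, the receptor Ptch1, the ligand-binding inhibitor Hhip, the signal transducer Smo, the inhibitor Sufu and the transcription factors Gli1, Gli2 and Gli3. Each had 1 row among the 23725 genes of the deposited table, and all 8 were among the 15663 genes tested. The subventricular zone lines the lateral ventricle and holds neural stem cells, and the study's title asks about changes over age that do not run one way. All animals were male and wild type and were 2, 6, 18 or 22 months old, giving 12 libraries, 3 for each age. The labels name a strain, C57BL/6, for the 2-month samples only. After dissection and dissociation of the zone, RNA was taken from its cells together, with no sort named in the labels, so fewer cells of a type and less RNA per cell cannot be told apart. Whether the libraries of an age stem from different animals is not stated in the labels, so the p-values cover the spread among these libraries alone, and that spread may be technical.

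In the absence of ligand, the receptor Ptch1 keeps the membrane protein Smo inactive, and the transcription factors Gli2 and Gli3 are held by Sufu and processed towards repressor forms in and around the primary cilium. When Shh binds Ptch1, Smo enters the cilium and the Gli proteins act as activators. Gli1, Ptch1 and Hhip are themselves standard transcriptional targets of the pathway, and both Ptch1 and Hhip bind the ligand and limit its reach. In the adult subventricular zone, Hedgehog signalling is known for its role in maintaining neural stem cells, especially in the ventral part of the wall.

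Sequence upstream of the genes was searched for the sites that Gli proteins bind, because 3 of the members are themselves Gli targets. RefSeq promoter entries on the build GRCm38.p6 were found for 6 of the 8 members, and the 250 bases before each start were read on both strands. Shh and Gli1 had no entry, so the target Gli1 was not searched. The consensus Gli site GACCACCCA, or TGGGTGGTC on the other strand, was in none of the 6 windows and in 74 of 32851 promoters of the same length (0.225%). Its inner letters CCACCC, or GGGTGG on the other strand, were in 28.1% of all promoters, among them those of Smo, Gli3 and Hhip. The windows of Ptch1 and Sufu held neither. That of Ptch1 (chromosome 13, 63565736 to 63565985, minus strand) lies inside the annotated gene, which reaches to 63573460. The sequence upstream of the whole annotated Ptch1 gene was therefore not searched. The matches of Smo, Gli3 and Hhip are given with 10 bases on either side, written 5′ to 3′ along the strand of the gene, with the matched letters in capitals.
Smo, 162 bases before the start: ccgaatacccCCACCCcagccccttc
Gli3, 170 bases before the start: gacggggcggGGGTGGgggcgcgcga
Hhip, 158 bases before the start: cagccggaggCCACCCtgggccccgg
The stretch of 198 bases just upstream of Hhip is shown whole, because Hhip is the member with the clearest difference between ages. It lies at chr8:80058061-80058258 on the minus strand of GRCm38.p6, and the capitals mark the same letters. The start in the promoter entry lies 52 bases inside the annotated gene, and the stretch leaves those 52 bases out, so its match stands that much closer to its 3′ end than the 158 bases given for the entry.
Hhip upstream: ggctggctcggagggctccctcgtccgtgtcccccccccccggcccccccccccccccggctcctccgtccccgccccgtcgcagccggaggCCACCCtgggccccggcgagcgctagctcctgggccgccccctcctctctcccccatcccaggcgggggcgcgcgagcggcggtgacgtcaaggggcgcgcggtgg
A match to these letters is a description of the sequence and not a measurement of binding.

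Libraries held 6381390 to 15962517 reads. Values are normalised counts, which are reads divided by the size factor of the library. A gene with 0 reads could hold up to 3, which is 1.74 to 4.41 normalised counts depending on the library, and every member was above this floor in every library. Markers of the labelled tissue were present: 6 progenitor markers and 6 neuroblast markers were all tested, and none was at 0 in every library. Striatal neuron markers were abundant beside them. The 9 markers summed to 74478 to 82069 normalised counts at each age, against 1063 to 2293 for the progenitor markers. Such sums also depend on how strongly each gene is expressed, so they give no ratio of tissues. Transcript length also moved with age. Genes whose longest transcript is over 6000 nt took 20.0% ± 0.233 of reads at 22 months, against 24.2% ± 0.617 at 2 months (SD, n = 3 each).

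Per kilobase of the longest annotated transcript, the receptor was the most abundant member and the ligand the least. Ptch1 averaged 101 normalised counts per kb over the 12 libraries (range 86.0 to 115), followed by Sufu at 58.0 (53.9 to 66.5) and Smo at 47.7 (42.7 to 55.2). Gli3 averaged 25.0 normalised counts per kb (18.5 to 29.5) and Hhip 20.4 (13.4 to 26.2). Gli2 averaged 9.54 (5.89 to 13.4), Gli1 6.17 (3.60 to 8.79) and Shh 5.50 (3.79 to 7.16). Among neighbours in this order, the ranges over libraries stood apart for Ptch1 and Sufu and for Smo and Gli3, and they overlapped for every other pair. Within single libraries the order was firmer for most pairs: Sufu was above Smo and Hhip above Gli2 in 12 of 12, Gli3 above Hhip and Gli2 above Gli1 in 11 of 12, and Gli1 above Shh in 8 of 12.

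The least abundant members rested on few reads. Shh had 9 to 26 reads per library and Gli1 17 to 49, while Ptch1 had 620 to 2003. The spread of Shh among libraries of 1 age was 25.4% of its mean, against 25.7% from counting alone. For Ptch1 the spread was 7.85%, against 3.10% from counting alone. For Shh the depth therefore sets the precision, and only a large difference between ages could have been detected.

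**Figure D1:**
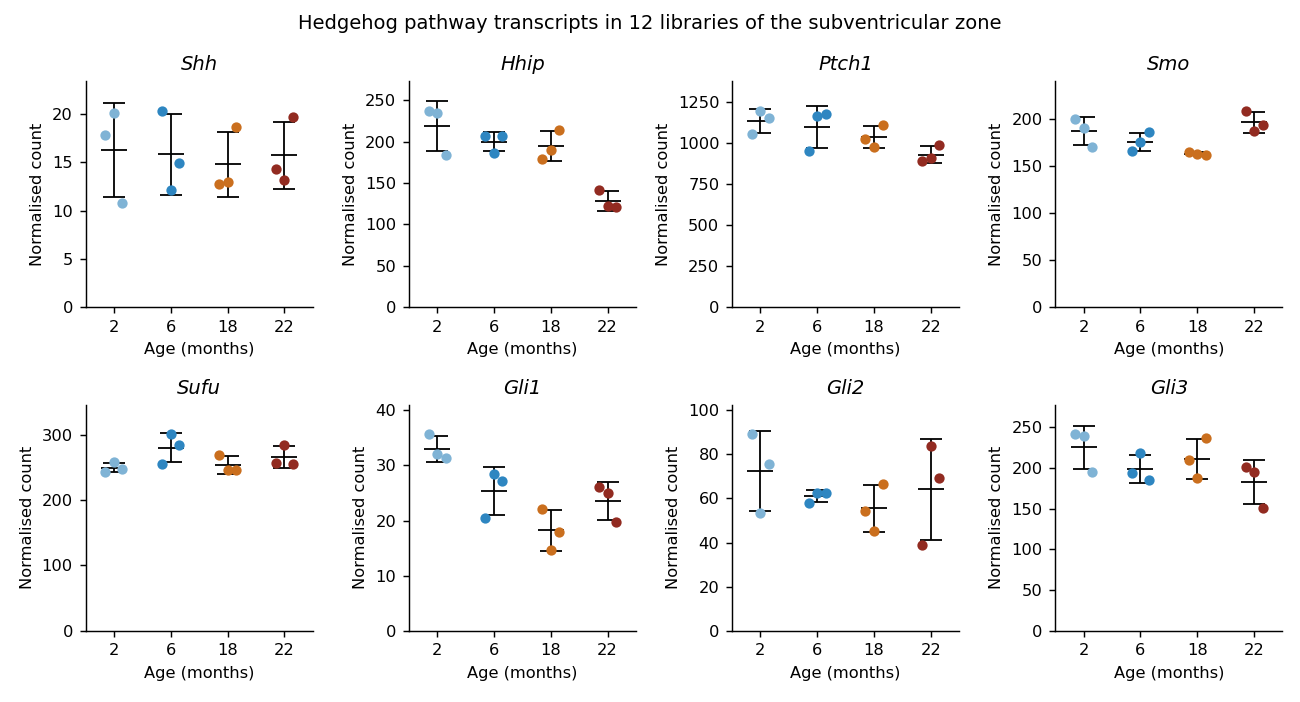
Normalised counts of the 8 members on the vertical axes, each from 0, against age in months. Points are single libraries and bars are the mean ± SD of 3 libraries. The 3 Hhip values at 22 months, 121 to 142, lie under all 9 values of the earlier ages, and the 3 Gli1 values at 18 months, 14.6 to 22.1, lie under all those at 2 months.

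Over the ages together, 3 of the 8 members differed by the F test of limma with Benjamini-Hochberg adjustment over all tested genes: Hhip (adjusted p = 0.000501), Ptch1 (adjusted p = 0.0423) and Gli1 (adjusted p = 0.0464). That is 3 of 8 against 31.5% of all tested genes, so the members were called at a rate near the background. Hhip and Ptch1 were lower at 22 months, and Gli1 was lower at 18 months. The calls for Ptch1 and Gli1 lay close to the threshold. Leaving out 1 library at a time kept the call for Hhip in 12 of 12 fits. The call for Ptch1 held only without replicate 1 of 2 months, 1 of 6 months, and 2 or 3 of 18 months, and that for Gli1 only without replicate 1 of 6, of 18 or of 22 months. With the trend of fold change over transcript length and GC content removed, Gli1 alone was called, close to the threshold (adjusted p = 0.0473), and Hhip had an adjusted p of 0.0639 and Ptch1 one of 0.103. Hhip was called in 8 of the 9 other settings, all but this correction. Gli1 was called in 6 of the 9, the exceptions being no filter on low values (adjusted p = 0.0947), DESeq2 (0.175) and a replicate block (0.0710). Ptch1 was called in 5 of the 9, the exceptions beside the length correction being no filter (adjusted p = 0.0628), no intensity trend (0.131) and quantile normalisation (0.0722).

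No member was called between neighbouring ages before the last step. Limma called 0 of 8 members at 6 against 2 months (background 0.926%) and 0 of 8 at 18 against 6 months (background 0.153%). In both comparisons 0 members had an unadjusted p under 0.05, and DESeq2 and edgeR also called 0. At 22 against 18 months 1 of 8 was called (background 18.9%), at 18 against 2 months 1 of 8 (background 7.28%), at 22 against 6 months 2 of 8 (background 22.2%) and at 22 against 2 months 2 of 8 (background 35.7%). Every called member was lower at the later age, as were 10.2%, 3.35%, 11.6% and 17.2% of all tested genes in the same order. The comparisons with 22 months share those 3 libraries, and those with 2 months share the 2-month libraries, so the counts are not independent of each other.

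**Figure D2:**
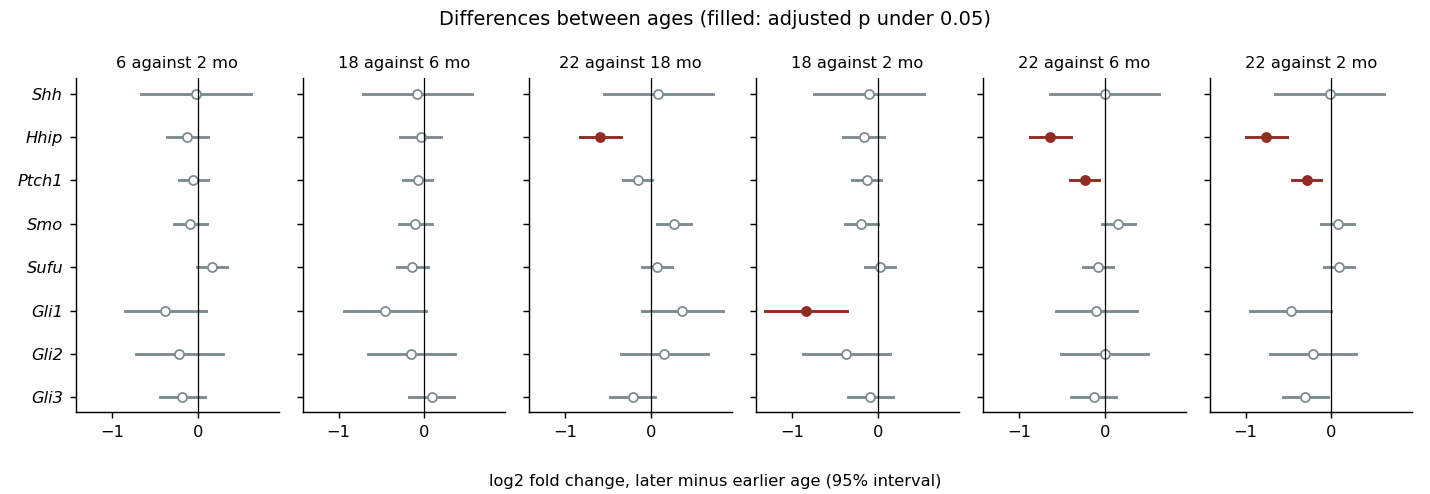
Log2 fold change of each member on the horizontal axis, later minus earlier age, with its 95% interval, for the 6 pairs of ages. Filled red points passed an adjusted p of 0.05 over all tested genes. Hhip is filled in all 3 comparisons with 22 months, Ptch1 at 22 against 6 and 22 against 2 months, and Gli1 at 18 against 2 months.

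No difference of the ligand Shh between ages was detectable at this depth. Shh (identifier 20423; chromosome 5, 28456840 to 28467101) had normalised counts of 17.8, 20.2 and 10.8 in the 3 libraries at 2 months and of 20.4, 12.2 and 14.9 at 6 months. It had 12.8, 13.0 and 18.7 at 18 months and 14.3, 13.2 and 19.7 at 22 months. The 4 ages overlapped throughout, and libraries of every age reached above 18. At 22 against 2 months the log2 fold change was -0.02, and its 95% interval of -0.66 to 0.62 still holds a change of moderate size in either direction. The gene overlaps the annotated transcript 9530036O11Rik. Since the sources used here do not say whether strand was counted, reads of overlapping genes cannot be told apart, and the same holds for Smo with Gm13717, Gli1 with Arhgap9, Gli2 with Gm51642 and Mir6346, Gli3 with Gm6556, and Hhip with Gm39206.

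The other genes of ligand processing and release were mostly scarce or steady. The ligands Ihh and Dhh were under the filter on low values, with at most 6.52 and 4.08 normalised counts in any library. Of the 6 tested genes of this list, 1 was called at 22 against 2 months (16.7%, against 35.7% of all tested genes). It was Disp2, a relative of the ligand-releasing transporter Disp1. Disp2 fell to 856 ± 50.3 normalised counts at 22 months, against 1065 ± 65.6 at 2 months (SD, n = 3 each; limma log2 fold change -0.31 ± 0.09 SE, adjusted p = 0.0119). The adjusted p was 0.168 with the length and GC trend removed. The call ended also without replicate 1 of 2 months or replicate 2 of 22 months (adjusted p up to 0.0549).

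Hhip was the member with the clearest difference, and it was lower at 22 months than at each earlier age. Hhip encodes a membrane-bound and secreted protein that binds Hedgehog ligands and holds them away from Ptch1. It is identifier 15245, on chromosome 8 from 79965850 to 80058060. The normalised counts were 238, 235 and 184 at 2 months, 207, 186 and 206 at 6 months, 179, 190 and 215 at 18 months, and 142, 122 and 121 at 22 months. The earlier 3 ages overlapped one another, and every library at 22 months lay below all 9 others. At 22 against 18 months alone, 34.7% of all tested genes had libraries that did not overlap, in either direction.

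Hhip fell to 128 ± 11.9 normalised counts at 22 months, against 195 ± 18.3 at 18 months (SD, n = 3 each; limma log2 fold change -0.60 ± 0.11 SE, adjusted p = 0.00236). Against 6 months, with 200 ± 11.7 normalised counts, the log2 fold change was -0.64 ± 0.11 (adjusted p = 0.0012). Against 2 months, with 219 ± 30.0, it was -0.76 ± 0.11 (adjusted p = 0.000131), a level 0.591 times that of 2 months. These 3 calls held in 12 of 12 fits that left out 1 library each. Earlier steps were not called, with log2 fold changes of -0.12 at 6 against 2 months (95% interval -0.36 to 0.12) and -0.04 at 18 against 6 months (-0.28 to 0.20).

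Hhip has a long transcript of 9074 nt, and long transcripts as a class were lower at 22 months. The 509 tested genes with transcripts of 8000 to 10000 nt had a median log2 fold change of -0.35 at 22 against 2 months and a lower quartile of -0.50, so Hhip lay under the lower quartile of its length class. With the length and GC trend removed, Hhip was still lower, by -0.34 ± 0.11 against 2 months (adjusted p = 0.0298) and by -0.34 ± 0.11 against 6 months (adjusted p = 0.0434). Against 18 months the value became -0.27 ± 0.11 and the call ended (adjusted p = 0.113).

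Markers of other cell types moved between 22 and 18 months as well. The 7 oligodendrocyte markers summed to 65912 to 85827 normalised counts at 22 months, against 87746 to 116455 at 18 months, and 5 of 7 were called lower. The 4 markers of oligodendrocyte precursors summed to 1235 to 1304 at 22 months, against 1430 to 1656 at 18 months, and 3 of 4 were called lower. The 9 striatal neuron markers summed to 81009 to 84040 at 22 months, against 70897 to 78681 at 18 months, and 7 of 9 were called higher. Of all tested genes, 10.2% were called lower and 8.63% higher between these 2 ages. None of these 20 markers was at 0 in every library, and their part in the Hhip difference was not tested.

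**Figure D3:**
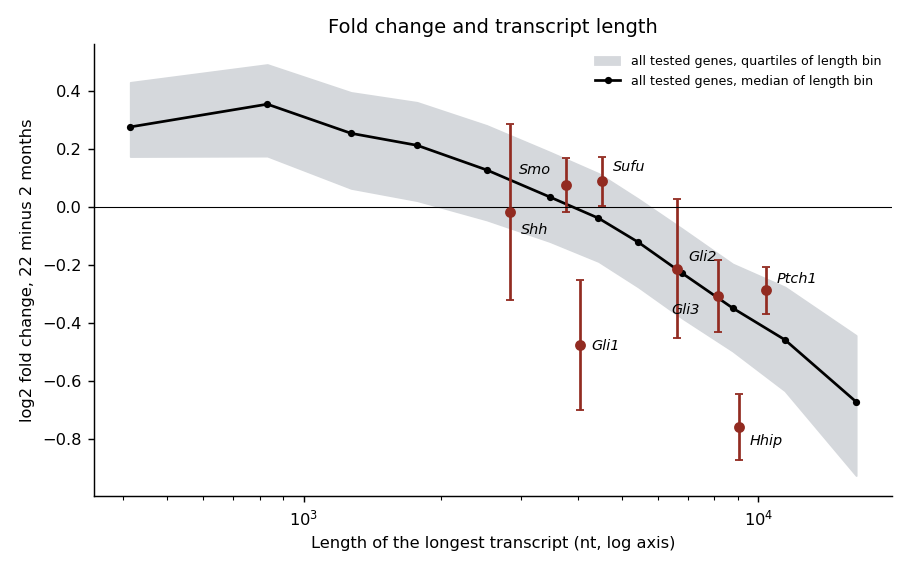
Log2 fold change at 22 against 2 months on the vertical axis, against the length of the longest transcript in nt on a logarithmic axis. The black line is the median and the grey band the quartiles of all tested genes in bins of length, and red points are the members with bars of 1 SE. Ptch1, Gli3 and Gli2 lie within the band, while Hhip at -0.76 and Gli1 at -0.48 lie under it.

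Ptch1, the receptor that is both the brake on Smo and a target of the pathway, had a small difference over the whole span. It is identifier 19206, on chromosome 13 from 63508328 to 63573460. Its normalised counts were 1057, 1199 and 1155 at 2 months, 952, 1163 and 1180 at 6 months, 1027, 977 and 1112 at 18 months, and 893, 911 and 987 at 22 months. The 3 libraries at 22 months lay below the 3 at 2 months, and they overlapped those at 6 and 18 months. The share of all tested genes with such a gap at 22 against 2 months is not given here, and 35.7% of them were called.

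Ptch1 averaged 930 ± 49.9 normalised counts at 22 months and 1137 ± 72.8 at 2 months (SD, n = 3 each; limma log2 fold change -0.29 ± 0.08 SE, adjusted p = 0.0102). Against 6 months, with 1098 ± 127, it was -0.23 ± 0.08 (adjusted p = 0.0452). The call against 2 months ended without replicate 2 of 2 months (adjusted p = 0.0529). The call against 6 months ended without replicates 2 or 3 of 2 months, 2 or 3 of 6 months, 1 of 18 months, and 1 or 2 of 22 months (adjusted p up to 0.190), and it ended also with no filter, no intensity trend, quantile normalisation or only the 2 ages compared.

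The direction of Ptch1 depended on the length correction. Its longest transcript has 10383 nt, the longest among the members. The 317 tested genes with transcripts of 10000 to 15000 nt had a median log2 fold change of -0.46 at 22 against 2 months and quartiles of -0.63 and -0.28, so Ptch1 at -0.29 lay above the median of its length class and within its quartiles. Of the 2182 tested genes over 6000 nt, 58.7% were called lower. With the length and GC trend removed, Ptch1 was at 0.12 against 2 months (adjusted p = 0.159), at 0.11 against 6 months (adjusted p = 0.244) and at 0.20 against 18 months (adjusted p = 0.0429). The last of these is a call in the opposite direction, so no direction of Ptch1 at 22 months held under both settings. The part that length plays in the difference was not tested beyond this correction.

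Among the 6 co-receptors and ligand-binding proteins, 2 were called at 22 against 2 months, both lower. That is 33.3%, near the 35.7% of all tested genes. Cdon, a co-receptor that helps Ptch1 bind the ligand, was at 204 ± 31.8 normalised counts at 22 months and 278 ± 15.8 at 2 months (limma log2 fold change -0.45 ± 0.11 SE, adjusted p = 0.00563). Lrp2, a large endocytic receptor, was at 52.6 ± 8.39 at 22 months and 79.1 ± 7.83 at 2 months (-0.59 ± 0.16, adjusted p = 0.00968). Both have long transcripts, of 7503 and 15460 nt, and neither was called with the length and GC trend removed (adjusted p = 0.210 for Cdon and 0.940 for Lrp2). Leaving out 1 library at a time kept the Cdon call in 12 of 12 fits and ended the Lrp2 call without replicate 2 of 2 months (adjusted p = 0.0503). The co-receptors Boc (log2 fold change 0.29, adjusted p = 0.144) and Gas1 (-0.03, 95% interval -0.41 to 0.35) were not called.

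Smo, the transducer, and Sufu, the cytoplasmic inhibitor of Gli proteins, were not called in any of the 6 comparisons. Smo (identifier 319757; chromosome 6, 29735497 to 29761366) had normalised counts of 200, 190 and 170 at 2 months and 166, 175 and 185 at 6 months. It had 165, 162 and 161 at 18 months and 209, 187 and 194 at 22 months. The 3 libraries at 18 months were the lowest 3 of the 12, and those at 22 months lay above all at 6 and 18 months and overlapped those at 2 months. The shares of all tested genes with such gaps are not given here, except for 22 against 18 months below.

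Smo averaged 196 ± 11.2 normalised counts at 22 months and 163 ± 1.89 at 18 months, a log2 fold change of 0.27 ± 0.09 that just missed the threshold (limma adjusted p = 0.0513). It passed in 1 of 10 other settings, the fit with no intensity trend, and in 2 of 12 fits that left out 1 library each. At 22 against 2 months the difference was 0.07 (95% interval -0.12 to 0.27). Non-overlapping libraries were no rarity at 22 against 18 months: 34.7% of all tested genes had them, and 2 of the 8 members, Hhip and Smo.

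Sufu (identifier 24069; chromosome 19, 46396896 to 46488804) ranged from 244 to 301 normalised counts over the 12 libraries. The means were 250 ± 7.21, 280 ± 22.8, 254 ± 13.7 and 266 ± 16.9 at 2, 6, 18 and 22 months. Smo and Sufu varied least among libraries of 1 age, by 5.67% and 6.00% of the mean, against 7.38% and 6.15% from counting alone. At 22 against 2 months its log2 fold change was 0.09, with a 95% interval of -0.09 to 0.26.

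Gli1, the factor whose own transcription is a common readout of pathway activity, was lower at 18 than at 2 months. It is identifier 14632, on chromosome 10 from 127329882 to 127341579. Its normalised counts were 35.7, 32.1 and 31.3 at 2 months, 20.4, 28.4 and 27.2 at 6 months, 22.1, 14.6 and 17.9 at 18 months, and 26.1, 25.0 and 19.7 at 22 months. The 3 libraries at 2 months were the highest of the 12, and the share of all tested genes with such an order is not given here. The other 3 ages overlapped in part, with the 18-month libraries lowest on average.

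Gli1 fell to 18.2 ± 3.77 normalised counts at 18 months, against 33.0 ± 2.34 at 2 months (SD, n = 3 each; limma log2 fold change -0.84 ± 0.22 SE, adjusted p = 0.0308), a level 0.559 times that of 2 months. Of all tested genes, 3.35% were called lower in this comparison. The call ended in DESeq2 (adjusted p = 0.0983) and with no filter on low values (adjusted p = 0.0648). It also ended without replicates 1, 2 or 3 of 2 months (adjusted p = 0.104, 0.0799 and 0.0655) and without replicates 2 or 3 of 18 months (adjusted p = 0.116 and 0.0838). The fold change itself stayed between -0.98 and -0.70 over the fits that left out 1 library.

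At 22 months Gli1 was at 23.6 ± 3.42 normalised counts, between the other ages. Its log2 fold change was -0.48 against 2 months (95% interval -0.95 to -0.00, limma adjusted p = 0.109) and 0.36 against 18 months (-0.11 to 0.84, adjusted p = 0.276). A return after 18 months was therefore not detectable with these reads. The longest Gli1 transcript has 4057 nt, and genes of 4000 to 5000 nt had a median log2 fold change of -0.04 at 22 against 2 months. With the length and GC trend removed, the value at 18 against 2 months was -0.89 ± 0.23 and was called (adjusted p = 0.0228).

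Markers of progenitors and neuroblasts also summed to less at 18 than at 2 months. The progenitor markers Egfr, Mki67, Top2a, Dlx1, Dlx2 and Gsx2 summed to 1084 to 1209 normalised counts in the 18-month libraries, against 2222 to 2356 in the 2-month libraries, and 4 of 6 were called lower. The 6 neuroblast markers summed to 2471 to 2632 at 18 months, against 4129 to 4353 at 2 months, and 6 of 6 were called lower. The share called lower among all tested genes was 3.35%. None of these 12 markers was at 0 in every library. From 18 to 22 months the mean progenitor sum went from 1127 to 1063 and the mean neuroblast sum from 2540 to 2629. The libraries of these ages overlapped in both sums. Within the lists, 1 of 6 progenitor markers, Mki67, was called lower at 22 against 18 months. Among the neuroblast markers 2 of 6, Cd24a and Igfbpl1, were called higher. The shares of all tested genes were 10.2% called lower and 8.63% called higher. Mean Gli1 went from 18.2 to 23.6, a difference that was not called. The 11 markers of astrocytes and quiescent stem cells summed to 44623 to 47629 at 18 months, against 44031 to 47214 at 2 months, of which Slc1a2 alone averaged 26252 over the 12 libraries. Among the 11, 5 were called, 2 higher and 3 lower, against 3.94% called higher and 3.35% called lower of all tested genes. The part of the cell mixture in the Gli1 difference was not tested.

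Gli2 and Gli3, the factors that first pass the signal on, with Gli2 mainly an activator and Gli3 mainly a repressor, were not called in any comparison. Gli2 (identifier 14633; chromosome 1, 118834061 to 119054405) had normalised counts of 89.1, 53.2 and 75.4 at 2 months, 58.1, 62.7 and 62.4 at 6 months, 54.4, 45.4 and 66.7 at 18 months, and 39.1, 83.7 and 69.4 at 22 months. The libraries of 22 months alone spanned most of the whole range, and the spread within ages was 23.9% of the mean, against 12.8% from counting alone. At 22 against 2 months the log2 fold change was -0.21 with a 95% interval of -0.72 to 0.29.

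Gli3 (identifier 14634; chromosome 13, 15463723 to 15730026) had normalised counts of 241, 239 and 195 at 2 months, 194, 218 and 184 at 6 months, 209, 188 and 237 at 18 months, and 201, 195 and 151 at 22 months. Ages overlapped in every pair. Gli3 averaged 182 ± 27.2 at 22 months and 225 ± 26.1 at 2 months, a log2 fold change of -0.31 ± 0.12 that was not called (limma adjusted p = 0.0635). The difference passed the threshold in 1 of 10 other settings, quantile normalisation (limma adjusted p = 0.0475), and in 2 of 12 fits that left out 1 library each. With the length and GC trend removed the log2 fold change was -0.00 (adjusted p = 0.984).

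Read as a group, the 8 members had a median log2 fold change of -0.25 at 22 against 2 months, with 6 of 8 below 0, against a median of 0.02 for all tested genes. At 18 against 2 months the median was -0.15, with 7 of 8 below 0, against 0.00 for all genes. In the same order, 7416 and 7773 of the 15663 tested genes were below 0. With the length and GC trend removed, the medians of the members were -0.04 and -0.11, and 6 of 8 and 8 of 8 were below 0. At 22 against 18 months the members had a median of 0.07, with 3 of 8 below 0. All tested genes had a median of 0.02 there, with 7198 below 0. With the length and GC trend removed, the median of the members became 0.15, with 1 of 8 below 0.

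The rest of the pathway was read from lists of 51 further genes, of which 48 were tested. Over the ages together 13 were called, or 27.1% of those tested, against 31.5% of all genes. At 22 against 2 months 15 were called, 4 higher and 11 lower, and at 18 against 2 months 3 were called, all lower. These shares, 31.2% and 6.25%, lay near the backgrounds of 35.7% and 7.28%.

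**Figure D4:**
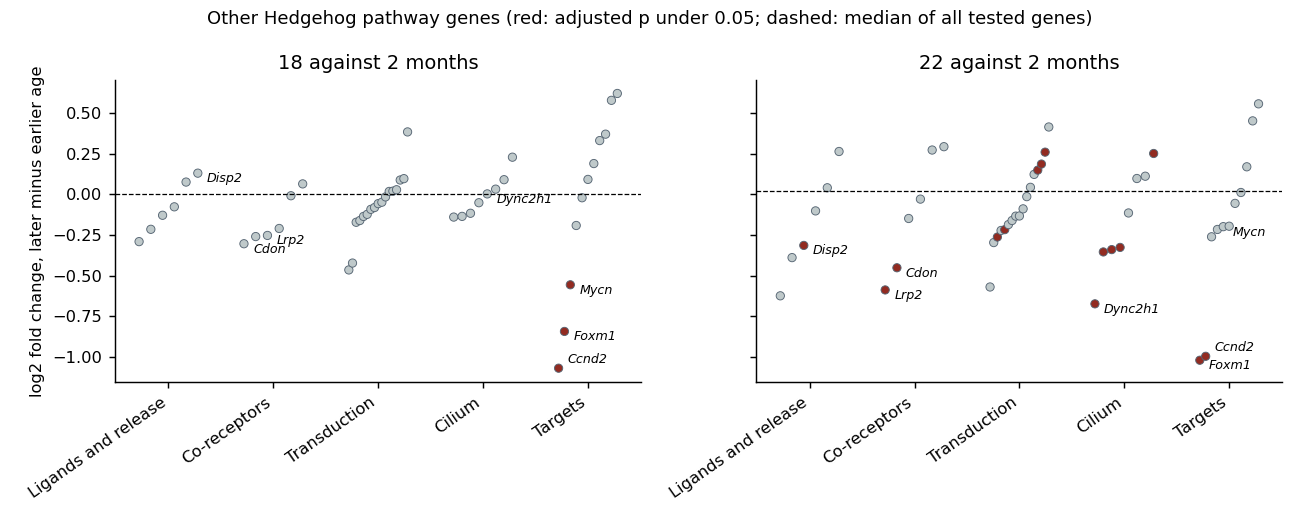
Log2 fold change on the vertical axis of the 48 other tested pathway genes, grouped by role, at 18 against 2 months on the left and at 22 against 2 months on the right. Red points passed an adjusted p of 0.05, and the dashed line is the median of all tested genes. The targets Ccnd2 and Foxm1 lie lowest in both panels, near -1 at 22 against 2 months.

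Among the 17 genes of signal transduction, 5 were called at 22 against 2 months, 3 higher and 2 lower. That is 29.4%, under the 35.7% of all tested genes. The higher ones were Adrbk1, the kinase Grk2 that phosphorylates Smo (limma log2 fold change 0.26 ± 0.07 SE, adjusted p = 0.00857), Mgrn1 (0.18, adjusted p = 0.0146), an E3 ligase, and Spop (0.15, adjusted p = 0.0442), an adaptor that brings Gli proteins to degradation. None of these 3 was called with the length and GC trend removed (adjusted p = 0.0654, 0.366 and 0.146 in that order). The Mgrn1 call ended without replicate 3 of 2 months or 2 of 22 months. The Spop call ended without replicates 1 or 3 of 2 months, 2 or 3 of 6 months, and 1 or 2 of 22 months.
The lower ones were the kinases Csnk1a1 (-0.26 ± 0.05, adjusted p = 0.00147) and Gsk3b (-0.22 ± 0.05, adjusted p = 0.00396), which phosphorylate Gli proteins. Csnk1a1 was still called lower after that correction (adjusted p = 0.00961), whereas Gsk3b turned to 0.11 and was not called (adjusted p = 0.0932). Btrc, a subunit of the ligase that starts Gli3 processing, was lower at 22 against 18 months (-0.15, adjusted p = 0.0473) but the call held in only 4 of 10 other settings. It also held only without replicate 3 of 2 months, 1 of 6 months or 2 of 18 months among the fits that left out 1 library. Kif7, the ciliary kinesin that regulates Gli proteins, was not called (-0.22 at 22 against 2 months, 95% interval -0.61 to 0.17).

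Of the 8 cilium genes, 5 were called at 22 against 2 months (62.5%, against 35.7% of all tested genes). Kif3a, a subunit of the motor that carries cargo into the cilium, fell to 1296 ± 63.7 normalised counts at 22 months, against 1624 ± 42.8 at 2 months (limma log2 fold change -0.33 ± 0.05 SE, adjusted p = 0.000175). Ift172, an intraflagellar transport protein, fell to 450 ± 26.9 at 22 months, against 575 ± 14.6 at 2 months (-0.35 ± 0.07, adjusted p = 0.000691). Both were called in all 10 other settings and all 12 fits that left out a library. Dync2h1, the heavy chain of the return motor, was lower (-0.67 ± 0.13, adjusted p = 0.000906), but its transcript has 14264 nt and the call ended with the length and GC trend removed (adjusted p = 0.447). Intu was lower (-0.34, adjusted p = 0.015) and Fuz higher (0.25, adjusted p = 0.0165), and neither was called after that correction (adjusted p = 0.407 and 0.380). The Intu call ended without replicate 2 of 2 months or 3 of 22 months, and the Fuz call without replicate 3 of either age. Motile cilia use intraflagellar transport too. The 6 ependymal markers summed to 1563 to 1765 normalised counts at 22 months, against 1142 to 1300 at 2 months. Of these, 4 of the 6 were called higher, against 18.4% of all tested genes. The part of ciliated cells in the differences of the cilium genes was not tested.

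Among the 11 tested genes listed as targets, 2 were called at 22 against 2 months, both lower and both linked to the cell cycle. That is 18.2%, under the 35.7% of all tested genes. Ccnd2, a D-type cyclin, fell to 885 ± 32.5 normalised counts at 22 months, against 1764 ± 49.3 at 2 months (limma log2 fold change -0.995 ± 0.08 SE, adjusted p = 4.34e-07). Ccnd2 was already lower at 6 against 2 months (-0.45, adjusted p = 0.00995) and at 18 against 6 months (-0.62, adjusted p = 0.0019). The first of these calls ended without replicates 1 or 2 of 2 months (adjusted p up to 0.0619). Foxm1, a transcription factor of dividing cells, was at 36.9 ± 8.30 at 22 months and 74.6 ± 6.45 at 2 months (-1.02 ± 0.18, adjusted p = 0.00053).
At 18 against 2 months Ccnd2 (-1.07, adjusted p = 8.28e-07), Foxm1 (-0.84, adjusted p = 0.0108) and Mycn (-0.56, adjusted p = 0.0255) were lower, in the comparison that called Gli1 lower. That is 3 of the 11 targets (27.3%), against 7.28% of all tested genes called and 3.35% called lower. The Foxm1 call ended without replicate 2 of 2 months or 3 of 18 months (adjusted p up to 0.0548), and the Mycn call without replicates 1 or 2 of 2 months and 1 or 3 of 18 months (adjusted p up to 0.116). Mycn, a driver of progenitor division, was not called at 22 against 2 months (-0.20, adjusted p = 0.297). Bcl2, a survival factor, was lower at 22 against 6 months (-0.39, adjusted p = 0.0128, and 0.318 after the correction for length and GC), while Olig2, a factor of ventral and oligodendrocyte lineages, was lower at 22 against 18 months (-0.32, adjusted p = 0.0457). The Olig2 call ended without replicates 1 or 2 of 2 months, 3 of 6 months, 2 or 3 of 18 months, and 1 or 3 of 22 months (adjusted p up to 0.211). Ccnd1 was not called in any pair (-0.06 at 22 against 2 months, 95% interval -0.27 to 0.16). The progenitor markers summed to 945 to 1214 normalised counts at 22 months, against 2222 to 2356 at 2 months. Of these, 5 of 6 were called lower, against 17.2% of all tested genes. Their part in the differences of Ccnd2, Foxm1 and Mycn was not tested.

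The genes whose log2 values followed a member most closely over the 12 libraries are given as a description, since all libraries share the differences of age and transcript length. For Hhip these were Unc13c (Pearson r = 0.958), Kcnq1ot1 (r = 0.956) and Ankib1 (r = 0.954). For Ptch1 they were Ubap2l (r = 0.950), Diap2 (r = 0.945) and Tenm2 (r = 0.942). For Gli1 they were Gen1 (r = 0.943), Esco2 (r = 0.922) and Dlx1as (r = 0.913), whose means, like that of Gli1, were highest at 2 months and lowest at 18 months. The closest genes reached r = 0.922 for Gli3 (Zfp160), 0.910 for Sufu (Myrip), 0.892 for Gli2 (Crtc3), 0.886 for Smo (Yipf5) and 0.835 for Shh (1700028J19Rik). Between members the highest values were 0.68 for Gli3 with Hhip, 0.64 for Ptch1 with Hhip and 0.57 for Smo with Gli1.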

How the data were processed

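Total RNA of dissociated subventricular zone was sequenced. The authors deposited 1 table of signal values, each a read count over the size factor of the library. With a tolerance of 1e-06, 100% of values were whole multiples of 1 read, so whole reads were recovered. The submitters' processing notes name DESeq2 and mm10, with no version, and the aligner, counting tool, annotation and strandedness are not given in the sources used here. Replicates of an age differed by more than counting noise and were counted separately.

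Genes that reached 10 normalised counts in 3 or more libraries were tested on log2 of the value plus 1 with limma 3.58.1 (eBayes with intensity trend, all 12 libraries in 1 fit, R 4.3.3), two-sided, with Benjamini-Hochberg adjustment over the 15663 genes within a comparison, with a threshold of 0.05. Fold changes are on that scale, which understates those of scarce genes. Alternatives included DESeq2 1.42.0 and edgeR 4.0.16 on the recovered reads, and the closing section gives their effect. Transcript length and GC content were those of the longest GENCODE transcript (94.8% of tested genes). Positions and promoters came from RefSeq on GRCm38.p6, the assembly that mm10 names. The 95% intervals of fold changes come from limma and cover the spread among libraries. The floor for a gene with 0 reads covers counting error only, since without molecular identifiers PCR copies count as separate reads.

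The members, lists and alternatives were chosen with earlier results of these data known. Named genes are the members, Cdon, Boc, Gas1, Ccnd1, Ccnd2, Mycn and Kif7, every listed gene that was called, the 2 largest differences at 22 against 2 months, and the 3 genes most like each member. A few genes of the lists and rule, and some upstream sequence, are not reported here, and counts over lists leave those genes out.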

Additional observations from a re-analysis of the deposited data

How the results depend on the processing

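Alternatives were a pseudocount of 0.5 or 5, no filter on low values, no intensity trend, DESeq2, edgeR, quantile normalisation, a replicate block, only the ages compared, the length and GC trend removed, and leaving out each library. The number of members called at 22 against 18 months (1) became 2 with no intensity trend. At 18 against 2 months (1) it became 0 with no filter and with DESeq2. At 22 against 6 months (2) it became 1 with no filter, no intensity trend, quantile normalisation, only the ages compared, and the length and GC trend removed. The last setting also left 1 at 22 against 2 months (2) and 1 over all ages (3), and no filter left 1 over all ages. At 22 against 2 months the count rose to 3 with quantile normalisation, where limma called Gli3 too (adjusted p = 0.0475). No intensity trend, DESeq2, quantile normalisation and the replicate block left 2 over all ages. The count of other pathway genes called over all ages (13) became 8 with that trend removed. Over the fits that left out 1 library, the members called ran from 1 to 2 at 22 against 18 months, 0 to 1 at 18 against 2 months, 1 to 2 at 22 against 6 months, 1 to 3 at 22 against 2 months and 1 to 3 over all ages. The counts of 0 at 6 against 2 and 18 against 6 months were 0 in every alternative.

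Removing the length and GC trend turned the sign of Ptch1 (0.011 at 6 against 2, 0.20 at 22 against 18, 0.11 at 22 against 6 and 0.12 at 22 against 2 months), Gli3 (0.045 at 22 against 18 and 0.13 at 22 against 6 months) and Gsk3b (0.11 at 22 against 2 months). Values near 0 turned for Smo at 22 against 2 (-0.0044), Hhip at 6 against 2 (0.0036), Sufu at 18 against 2 (-0.011) and Shh at 22 against 6 months (-0.070). Shh at 22 against 6 months also turned with quantile normalisation (-0.024) and a pseudocount of 5 (-0.000134), and Gli2 there with quantile normalisation (-0.033). The cause was not tested beyond the correction itself.

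Leaving out 1 library moved uncalled values across 0. Shh ran from -0.27 to 0.15 at 6 against 2, -0.25 to 0.10 at 18 against 6, -0.076 to 0.25 at 22 against 18, -0.36 to 0.065 at 18 against 2, -0.16 to 0.19 at 22 against 6 and -0.27 to 0.15 at 22 against 2 months. Gli2 ran from -0.072 to 0.47 at 22 against 18, -0.22 to 0.32 at 22 against 6 and -0.44 to 0.10 at 22 against 2 months. The others were Gli1 at 22 against 6 (-0.24 to 0.023), Hhip at 18 against 6 (-0.11 to 0.018), Ptch1 at 6 against 2 (-0.11 to 0.045) and Sufu at 18 against 2 months (-0.022 to 0.046). Depth limits Shh and Gli1 most, with 201 and 319 reads over all libraries.

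The replicate numbers share no stated origin and did not pair the libraries: deviations of same-numbered libraries correlated from -0.187 to 0.159, over 0.1 in 2 of 18 pairs, and 4 of 12 libraries correlated best with their own number. With a replicate block, 0, 0, 1, 1, 2 and 2 members were called at 6 against 2, 18 against 6, 22 against 18, 18 against 2, 22 against 6 and 22 against 2 months, as without it. Over all ages the block called 2 members and not Gli1 (adjusted p = 0.071), and 12 other pathway genes.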
